A study of Mus musculus with 15 samples.

Results

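Intermediate progenitors are the dividing cells that lie between radial glia and neurons in the embryonic cortex. In the cortex, radial glia express Pax6, intermediate progenitors express Eomes (also called Tbr2), and early-born glutamatergic neurons express Tbr1, so that the 3 genes mark successive steps of the same lineage. Neurogenesis is driven by proneural factors, which are basic helix-loop-helix (bHLH) proteins that pair with E proteins and bind the E-box motif CANNTG. It is held back by the Id proteins and by the Hes proteins downstream of Notch signaling. The 9 genes described here were listed by name among the 19475 genes of the deposited table, and all 9 were found there by their Ensembl identifiers. They are the T-box factor Eomes, the proneural factors Neurog1 and Neurog2, the zinc finger factor Insm1, the antiproliferative gene Btg2, which is switched on in progenitors whose divisions give neurons, and the bHLH factors Neurod1, Neurod2, Neurod4, and Neurod6, which act later, in committed precursors and young neurons.

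Brain RNA of 15 C57BL/6J embryos at E16.5, in mid to late cortical neurogenesis, was sequenced, with 5 WT embryos, 5 Tbr1+/K228E embryos (labeled Tbr1 hetero), and 5 Tbr1 K228E/K228E embryos (labeled Tbr1 homo), each with 3 females (replicates 1 to 3) and 2 males (replicates 4 and 5). K228E is a substitution in the T-box, the DNA-binding domain of TBR1, and the knock-in allele lies in every cell of the embryo. The neomycin cassette of the allele was removed by a cross with protamine-Cre mice. Tissue is called whole brain in the deposited description and both brain and forebrain in the text of the study, and these names are kept here. The values are normalized read counts, which are estimated counts per gene divided by a size factor of the library.

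Depth, estimated from the spacing of the lowest values, was 26.2 to 38.0 M reads per embryo (median 29.8 M; M, mega). Regional marker genes differed between embryos of the same genotype, and whether the dissection differed was not tested. Summed over 17 Hox genes, whose RNA comes from hindbrain and spinal cord, normalized read counts were lowest for Tbr1+/K228E replicate 2 (3.66), highest for Tbr1+/K228E replicate 1 (3963), and 3275 for WT replicate 4. En1, a marker of the midbrain and anterior hindbrain, was lowest for Tbr1+/K228E replicate 2 (1.86) and highest for Tbr1 K228E/K228E replicate 2 (613). Emx1, a marker of the dorsal telencephalon, was present in every embryo, at 260.0 in WT replicate 4 and at 773 in WT replicate 3, the lowest and the highest. In bulk tissue, fewer cells of a type and less RNA per cell cannot be told apart.

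Tbr1 itself, the mutated gene and the next step after Eomes, rose in Tbr1 K228E/K228E embryos relative to WT, by 1.69 on the log2 scale (standard error [SE] 0.23, limma, adjusted p = 0.00437 with correction over 16507 genes). Beside this change, none of the 9 genes passed the test between any pair of genotypes. Of all 16507 genes tested, 0% passed an adjusted p of 0.05 between Tbr1+/K228E and WT, 0.127% between Tbr1 K228E/K228E and WT, 0.0788% between Tbr1 K228E/K228E and Tbr1+/K228E, and 0.0969% in the test of any difference among the genotypes. Of the 9 genes, 0 passed in each of these 4 tests, and 0 of 9 had even an unadjusted limma p under 0.05, which 1.79%, 3.23%, 3.3%, and 2.59% of all genes had in the same order. The embryos of the compared genotypes overlapped for all 9 genes in all 3 comparisons, whereas 0.26%, 0.594%, and 0.878% of all genes showed no overlap.

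**Figure D1:**
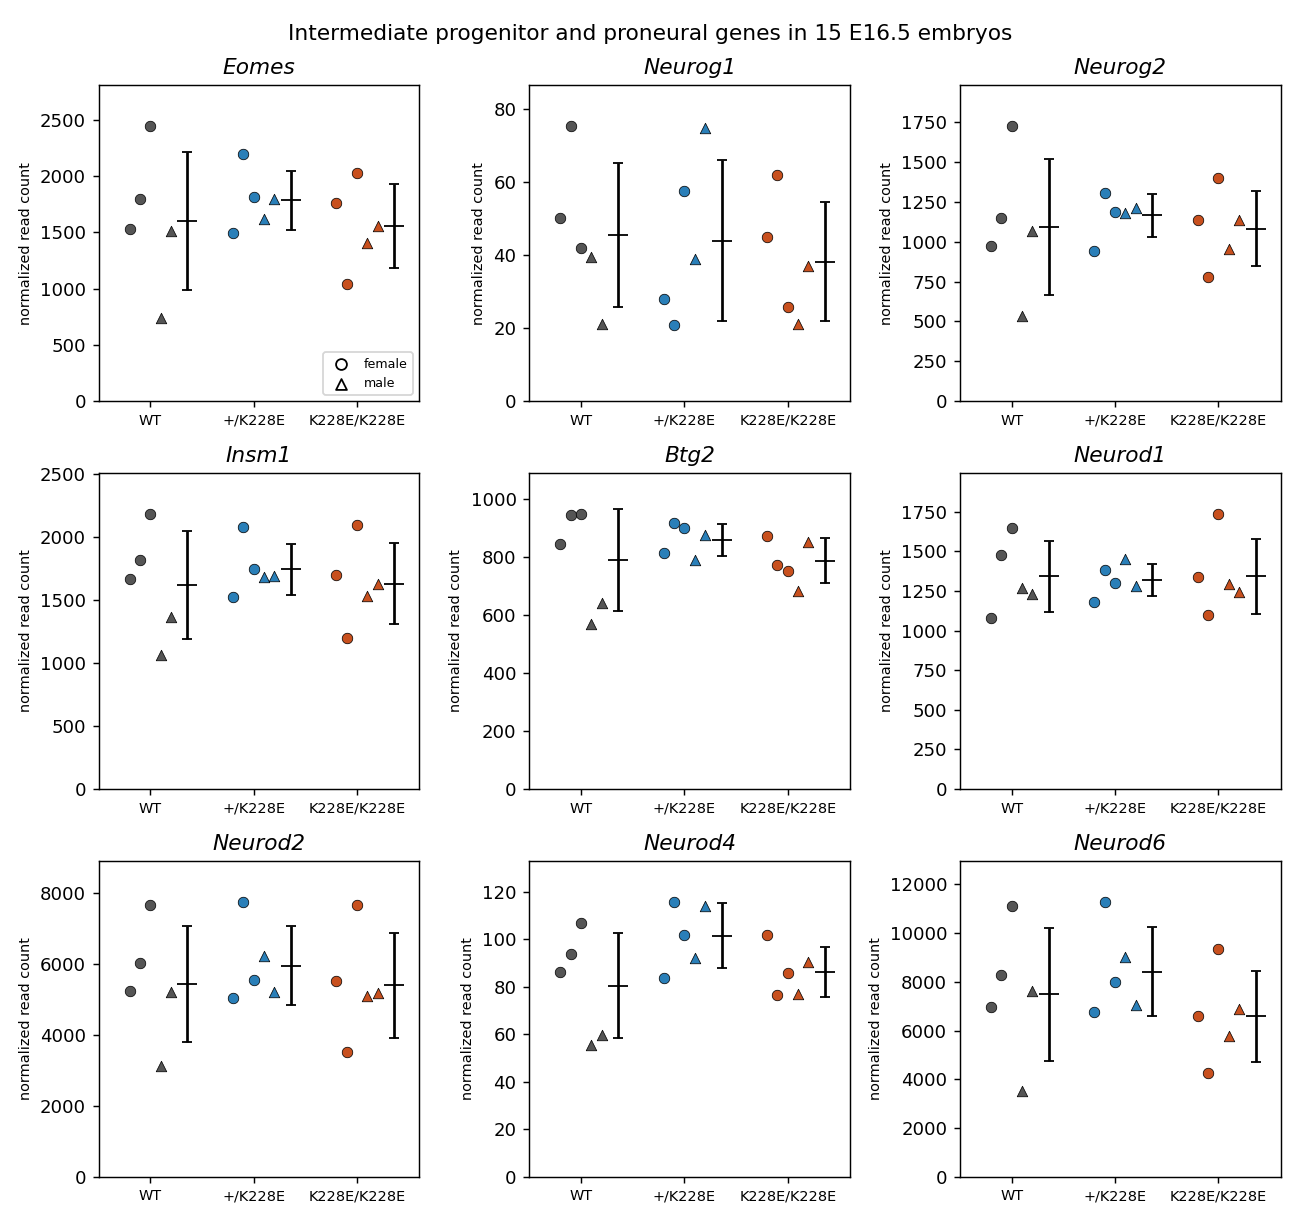
Normalized read count (linear axis from 0) of the 9 genes in every embryo, with WT in gray, Tbr1+/K228E in blue, and Tbr1 K228E/K228E in orange, circles for females and triangles for males; horizontal ticks and bars give the mean and SD of 5 embryos. The 3 genotypes overlap in every panel, and the WT embryos of Eomes spread from 737 to 2441.

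Levels per kilobase of exon, which allow genes to be compared, differed widely over the 9 genes. Averaged over all embryos, the late factors were highest, with 3487 normalized read counts per kb for Neurod6 and 1779 for Neurod2. Insm1 (537), Neurog2 (499), and Neurod1 (489) followed at levels per kb that did not differ beyond the spread between embryos, and then came Eomes (396) and Btg2 (295). Neurod4 (26.7) and Neurog1 (25.3) were lowest and did not differ from each other beyond their spread. In WT embryos the same quantity was 522 ± 138 (SD, n = 5) for Insm1, 489 ± 191 (SD, n = 5) for Neurog2, 491 ± 81.8 (SD, n = 5) for Neurod1, 386 ± 148 (SD, n = 5) for Eomes, and 288 ± 63.8 (SD, n = 5) for Btg2. These ranges overlapped, but the genes were measured in the same embryos, and Eomes, Neurog2, and Insm1 varied together. The spread between embryos therefore does not measure how certain the order of the genes is within an embryo, which was not tested.

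Eomes (ENSMUSG00000032446), the transcription factor that defines intermediate progenitors, is a plus-strand gene of chromosome 9 (GRCm38, from 118478212 to 118486132). Its normalized read counts were 1527, 1794, 2441, 737, and 1515 in WT replicates 1 to 5. They were 1489.7, 2193, 1814, 1619, and 1794 in Tbr1+/K228E embryos, and 1761, 1039, 2022, 1407, and 1552 in Tbr1 K228E/K228E embryos. WT replicates 4 and 3 were the lowest and the highest of all embryos, and all Tbr1+/K228E and Tbr1 K228E/K228E embryos lay between them. The means were 1603 ± 613 (SD, n = 5), 1782 ± 266 (SD, n = 5), and 1556 ± 370.4 (SD, n = 5). On the scale of log2(normalized read count + 1), Eomes differed by 0.24 between Tbr1+/K228E and WT (SE 0.25, 95% interval -0.29 to 0.77, adjusted p = 0.999) and by 0.02 between Tbr1 K228E/K228E and WT (SE 0.25, 95% interval -0.51 to 0.55, adjusted p = 1.00), both from limma. A shared stretch of 118 exonic bases with the antisense gene Gm33460 leaves a small uncertainty in the Eomes count.

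The proneural factors Neurog1 and Neurog2 act at the start of neuronal commitment, Neurog2 mainly in the dorsal telencephalon and Neurog1 also in the midbrain and hindbrain. Neurog2 (chromosome 3, from 127633135 to 127635631, plus strand) had normalized read counts of 972, 1151, 1724, 537, and 1065 in WT, 942, 1308, 1189, 1178, and 1209 in Tbr1+/K228E, and 1136, 777, 1403, 955, and 1138 in Tbr1 K228E/K228E embryos. The lowest and the highest value were again those of WT replicates 4 and 3. The log2 difference was 0.18 (SE 0.23) for Tbr1+/K228E and 0.06 (SE 0.23) for Tbr1 K228E/K228E relative to WT. Neurog1 (chromosome 13, from 56250478 to 56252163, minus strand, a gene with a single exon) was low in all embryos, with means of 45.6 ± 19.7 (SD, n = 5), 44.0 ± 22.1 (SD, n = 5), and 38.2 ± 16.3 (SD, n = 5) in the same order of genotypes. Its embryos spread 3.63-fold from the lowest to the highest, without order by genotype, and the interval of its log2 difference between Tbr1 K228E/K228E and WT (-0.24, SE 0.39, 95% interval -1.06 to 0.58) was the widest of the 9 genes.

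Insm1 and Btg2 mark the passage from dividing progenitor to neuron. Insm1 (chromosome 2, from 146221921 to 146225020, plus strand, single exon) promotes the formation of basal progenitors, and WT embryos had a mean of 1619 ± 428 (SD, n = 5), Tbr1+/K228E embryos of 1744 ± 203 (SD, n = 5), and Tbr1 K228E/K228E embryos of 1630.5 ± 321 (SD, n = 5) normalized read counts. Btg2 (chromosome 1, from 134075170 to 134079120, minus strand) had means of 789 ± 175 (SD, n = 5), 858 ± 55.2 (SD, n = 5), and 785 ± 77.3 (SD, n = 5) in the same order. The log2 differences of Tbr1 K228E/K228E relative to WT were 0.03 (SE 0.17) for Insm1 and 0.02 (SE 0.13) for Btg2, and the 95% interval of the latter ran from -0.25 to 0.29.

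Among the Neurod genes, Neurod4 and Neurod6 had the largest differences between genotypes, and neither passed the test. Neurod4 (chromosome 10, from 130268152 to 130280240, minus strand), which is expressed in neuronal precursors, had normalized read counts of 86.3, 93.9, 107, 55.4, and 59.7 in WT, 83.8, 116, 102, 92.1, and 114 in Tbr1+/K228E, and 102, 76.5, 85.9, 77.0, and 90.4 in Tbr1 K228E/K228E embryos. Of the Tbr1+/K228E embryos, 2 exceeded every WT embryo, and the WT males were the lowest of all embryos. The log2 difference was 0.37 between Tbr1+/K228E and WT (SE 0.18, 95% interval -0.01 to 0.74, adjusted p = 0.999) and -0.23 between Tbr1 K228E/K228E and Tbr1+/K228E (SE 0.18, adjusted p = 0.996). In two-sided exact permutation tests of 5 against 5 embryos, the smallest of the 27 p-values was that of Neurod4 between Tbr1 K228E/K228E and Tbr1+/K228E (p = 0.103, where the smallest possible is 0.00794).

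Neurod6 (chromosome 6, from 55677822 to 55681263, minus strand) and Neurod2 (chromosome 11, from 98325415 to 98329648, minus strand) are expressed in cortical projection neurons. Neurod6 had normalized read counts of 6974, 8271, 11093, 3502, and 7622 in WT, 6772, 11277, 7984, 8998, and 7066 in Tbr1+/K228E, and 6606, 4248, 9348, 5784, and 6898 in Tbr1 K228E/K228E embryos. Of the Tbr1 K228E/K228E embryos, 3 lay below every Tbr1+/K228E embryo. The log2 difference of Neurod6 between these genotypes was -0.38 (SE 0.26, 95% interval -0.93 to 0.17, adjusted p = 0.996), and that between Tbr1 K228E/K228E and WT was -0.14 (SE 0.26). For Neurod2 the WT mean was 5438 ± 1636 (SD, n = 5), the Tbr1+/K228E mean 5947 ± 1101 (SD, n = 5), and the Tbr1 K228E/K228E mean 5386 ± 1480.1 (SD, n = 5), with log2 differences from WT of 0.17 (SE 0.22) and 0.00093 (SE 0.22). Neurod1 (chromosome 2, from 79452521 to 79456751, minus strand), which is expressed as intermediate progenitors leave the cycle, varied least across all embryos, 1.61-fold from the lowest to the highest value. Its means were 1341 ± 223 (SD, n = 5), 1318 ± 103 (SD, n = 5), and 1341 ± 237 (SD, n = 5), and its log2 differences from WT were -0.013 (SE 0.12) and -0.00067 (SE 0.12). Neurod1 shares 201 exonic bases with Cerkl on the same strand, whose mean normalized read count was 25.1.

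Over the 9 genes, the median log2 difference was 0.17 between Tbr1+/K228E and WT, with 7 of 9 positive, beside a median of -0.0021 over all genes. It was 0.02 between Tbr1 K228E/K228E and WT, with 6 of 9 positive (all genes, -0.0023), and -0.16 between Tbr1 K228E/K228E and Tbr1+/K228E, with 1 of 9 positive (all genes, 0.00042). These comparisons share embryos, and the genes varied together from embryo to embryo, so that the counts of signs are a description. The spread between embryos set the precision. The SD of Neurog1 around its genotype means on the log2 scale was 0.66, and that of Neurod6 was 0.46, above those of 92.2% and 84.8% of all tested genes, while that of Neurod1 was 0.21 (61.5% of genes below).

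**Figure D2:**
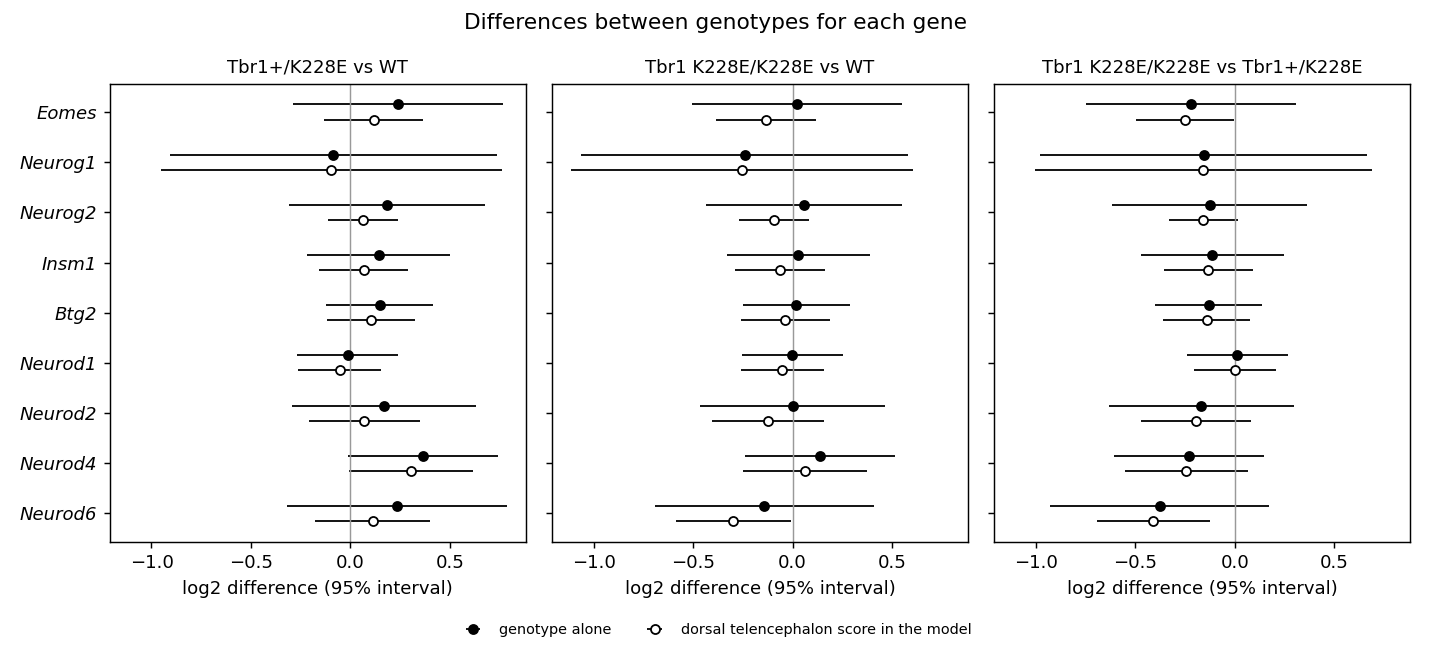
Log2 difference with its 95% interval for each gene in the 3 comparisons, from limma on log2(normalized read count + 1) of 15 embryos; filled circles give the model with genotype alone and open circles the model with the dorsal telencephalon score added. All filled intervals span 0, and with the score in the model the intervals of Eomes, Neurog2, Neurod2, and Neurod6 are narrower and those of Neurod6 (both comparisons of Tbr1 K228E/K228E embryos) and of Eomes (Tbr1 K228E/K228E against Tbr1+/K228E) lie below 0. The score holds Emx1, the gene most like Eomes and Neurog2 in these embryos.

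The ratio of Tbr1 to Eomes, which relates the neuronal gene to the progenitor gene within an embryo, differed between the genotypes. Tbr1 itself rose and Eomes passed in no comparison, so a higher ratio followed from the rise of Tbr1. The ratio is therefore a description and not a separate test of the step from Eomes to Tbr1. Ratios of Tbr1 to genes other than Eomes were not tested. WT embryos ran from 2.00 to 2.85, Tbr1+/K228E embryos from 2.78 to 4.17, and Tbr1 K228E/K228E embryos from 6.55 to 7.92. The mean log2 ratios of these genotypes were 1.19 ± 0.20 (SD, n = 5), 1.79 ± 0.23 (SD, n = 5), and 2.86 ± 0.11 (SD, n = 5). The log2 ratio rose by 0.61 from WT to Tbr1+/K228E (two-sided exact permutation test, p = 0.0159, adjusted over 6 tests 0.0317). It rose by 1.67 from WT to Tbr1 K228E/K228E and by 1.06 from Tbr1+/K228E to Tbr1 K228E/K228E (exact permutation test, p = 0.00794 each, the smallest that 5 against 5 embryos allow, adjusted 0.0238 each). In the latter 2 comparisons the embryos did not overlap. Of the genes in the ratio, Tbr1 had means of 3537 ± 1049 (SD, n = 5), 6269 ± 1532 (SD, n = 5), and 11366 ± 3160 (SD, n = 5) normalized read counts, in the order of genotypes given above. With correction over all tested genes, Tbr1 on its own did not pass between Tbr1+/K228E and WT (limma, log2 difference 0.85, SE 0.23, adjusted p = 0.999). Nor did it pass between Tbr1 K228E/K228E and Tbr1+/K228E (0.85, SE 0.23, adjusted p = 0.614). Its unadjusted limma p-values were 0.00225 and 0.00231 in the same order. The ratio was corrected over 6 tests only, so its adjusted p-values cannot be compared with those of Tbr1. Eomes passed in no comparison.

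The preceding step, the ratio of Eomes to Pax6, the radial glial gene, averaged 1.14 ± 0.35 (SD, n = 5) for WT, 1.24 ± 0.18 (SD, n = 5) for Tbr1+/K228E, and 1.18 ± 0.14 (SD, n = 5) for Tbr1 K228E/K228E embryos. Its log2 difference from WT was 0.18 in Tbr1+/K228E (exact permutation test, p = 0.627) and 0.12 in Tbr1 K228E/K228E embryos (exact permutation test, p = 0.802). Without WT replicate 4, whose ratio was 0.58, these log2 differences were -0.04 and -0.11. Pax6 itself differed from WT by 0.06 (SE 0.10) and -0.09 (SE 0.10) on the log2 scale.

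**Figure D3:**
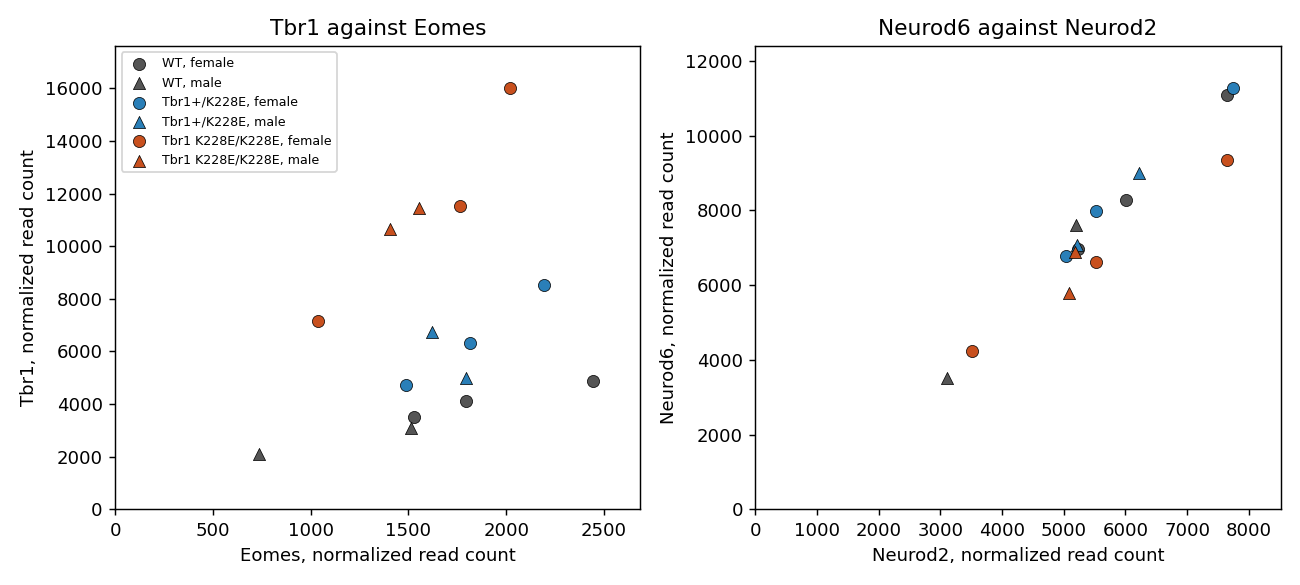
Tbr1 against Eomes (left) and Neurod6 against Neurod2 (right), both axes in normalized read counts from 0, with a point per embryo. Tbr1 K228E/K228E embryos (orange) lie above the others at a given Eomes count, with Tbr1 to Eomes ratios of 6.55 to 7.92 against 2.00 to 2.85 in WT (gray). Neurod6 rises with Neurod2 in all genotypes. Neurod6 to Neurod2 ratios are 1.14 to 1.33 in Tbr1 K228E/K228E, 1.35 to 1.46 in Tbr1+/K228E (blue), and 1.13 to 1.47 in WT embryos.

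Between embryos of the same genotype, the genes moved together. Counting within each genotype, WT replicate 4 was the lowest embryo for 7 of 9 genes and WT replicate 3 the highest for 8 of 9. Tbr1+/K228E replicates 1 and 2 were the lowest and the highest for 7 of 9 genes each, and in Tbr1 K228E/K228E embryos replicate 2 was the lowest for 7 and replicate 3 the highest for 6 of 9. Correlations were computed over the 15 embryos on log2 deviations from the genotype means, for all 36 pairs of genes, with 100000 permutations of embryos within genotype. Of 36 pairs, 30 had a positive Pearson's r, 22 passed an adjusted permutation p of 0.05 for r, and 22 for Spearman's rho. The share of passing pairs over all genes was not computed, so these counts do not set the 9 genes apart. With the Hox, meninges, and cell cycle scores regressed out, 11 of 36 passed for r, among them Neurog1 with Btg2 (r = 0.65, adjusted permutation p = 0.0151) and with Neurod4 (r = 0.73, adjusted permutation p = 0.0136), which were not among the 22. Permuting the residuals makes no allowance for the fitted scores, so the p-values with scores regressed out may be too small. The points share library, depth, and dissected tissue.

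**Figure D4:**
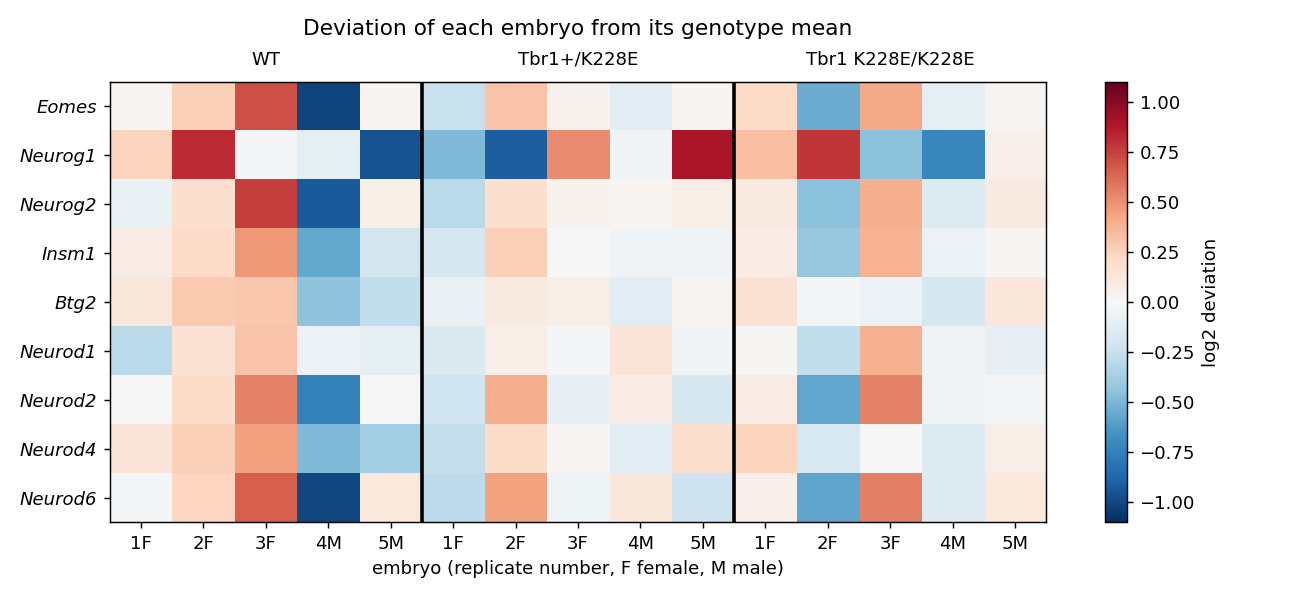
Deviation of each embryo (columns, F female, M male) from the mean of its genotype, on the log2 scale, for the 9 genes (rows); red is above and blue below the mean. WT replicate 4 is below and WT replicate 3 above the mean for Eomes, Neurog2, Insm1, Btg2, Neurod2, Neurod4, and Neurod6, whereas Neurog1 follows another order of embryos.

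The closest block held Eomes, Neurog2, Insm1, Neurod2, and Neurod6. The Pearson's r of Eomes was 0.98 with Neurog2 (rho 0.93), 0.96 with Insm1 (rho 0.96), 0.95 with Neurod2 (rho 0.83), and 0.96 with Neurod6 (rho 0.82), with permutation p-values of 1e-05, 1e-05, 6e-05, and 8e-05, where 1e-05 is the smallest that these permutations can give. The adjusted p-values for r were 9e-05, 9e-05, 0.000309, and 0.00032, and those for rho 0.00036, 0.00036, 0.00263, and 0.00264. Without WT replicates 3 and 4, the embryos farthest from the median of Eomes, the same values of r were 0.94, 0.94, 0.91, and 0.89. Neurod2 and Neurod6 had an r of 0.98 (rho 0.97, permutation p = 1e-05 for r and 2e-05 for rho, adjusted 9e-05 and 0.00036), which was 0.97 without WT replicate 4 and Tbr1 K228E/K228E replicate 2.

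Btg2 and Neurod4 formed a second close pair, with an r of 0.93 (rho 0.92, permutation p = 0.0001 and 0.00011, adjusted 0.000327 and 0.00066), which was 0.79 without the WT males, the embryos farthest from the median of Btg2. Btg2 and Eomes were less closely related (r = 0.73, rho = 0.73, permutation p = 0.0114 and 0.00607, adjusted 0.0242 and 0.0137), and this relation rested on WT replicates 3 and 4, without which r was 0.37 (adjusted permutation p = 0.293). Before scores were regressed out, Neurog1 passed with none of the other 8 genes, and its r ran from -0.28 with Neurod2 (rho -0.16, permutation p = 0.334 and 0.584, adjusted 0.401 and 0.657) to 0.46 with Btg2 (rho 0.54, permutation p = 0.0954 and 0.0418, adjusted 0.127 and 0.0628). These 2 values were -0.29 and 0.36 without WT and Tbr1+/K228E replicates 5.

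**Figure D5:**
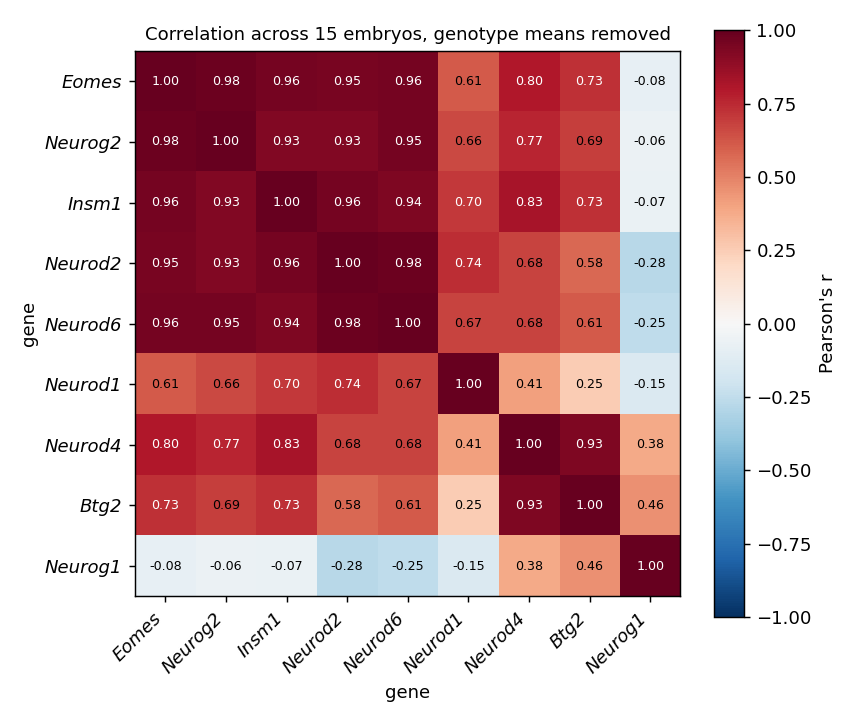
Pearson's r of the log2 deviations from genotype means over 15 embryos for each pair of the 9 genes (both axes), from -1 in blue to 1 in red. Eomes, Neurog2, Insm1, Neurod2, and Neurod6 are related with r of 0.93 to 0.98, Btg2 and Neurod4 with r of 0.93, and Neurog1 has r of -0.28 to 0.46 with the others.

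Regional and proliferation markers moved with these genes. A dorsal telencephalon score, the mean log2 value of Emx1, Emx2, and Lhx2, ran from 9.47 in WT replicate 4 to 10.4 in WT replicate 3. Its r was 0.95 with Neurog2 (rho 0.88, permutation p = 4e-05 and 5e-05, adjusted over 45 relations 0.00045 and 0.000787) and 0.82 without WT replicates 3 and 4. With Eomes its r was 0.90 (rho 0.77, permutation p = 0.00013 and 0.00243, adjusted 0.000731 and 0.00683) and 0.66 without the same embryos (adjusted permutation p = 0.043). A cell cycle score, averaged over 20 genes on the log2 scale, had its highest r with Neurod4 (0.90, rho 0.92, permutation p = 8e-05 and 0.00011, adjusted 0.000514 and 0.00099), and 0.90 without WT replicate 4 and Tbr1 K228E/K228E replicate 2. A score of 6 midbrain and cerebellum genes, by contrast, fell as Neurod6 rose (r = -0.67, rho = -0.78, permutation p = 0.00159 each, adjusted 0.00511 each), with an r of -0.62 without Tbr1+/K228E replicate 2 and Tbr1 K228E/K228E replicate 3 (adjusted permutation p = 0.187). Its r with Neurog1 was positive (0.63, rho 0.46, permutation p = 0.0211 and 0.114, adjusted 0.0352 and 0.142) and 0.46 without the same embryos (adjusted permutation p = 0.234). Without those embryos, neither relation of the midbrain and cerebellum score passed, although the r with Neurod6 changed little. The part of dissection in the correlations among the 9 genes was not tested apart from these scores.

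Tbr1 moved with the same block when the genotype means were removed. Its r was 0.97 with Neurod2 (rho 0.95, permutation p = 1e-05 each, adjusted 0.000225 and 0.00045) and 0.90 with Eomes (rho 0.88, permutation p = 7e-05 and 0.00042, adjusted 0.000514 and 0.0023). Without WT replicate 4 and Tbr1 K228E/K228E replicate 2, these values of r were 0.95 and 0.83. Of 13540 genes with a mean of at least 50, those most like Eomes over the 15 embryos were Emx1 (r = 0.99), a homeobox gene of the dorsal telencephalon, Neurog2 (0.98), Sez6 (0.97), Nr2e1 (0.97), a nuclear receptor of neural progenitors, and Cdkn1b (0.97), a cell cycle inhibitor. Those most like Neurog2 were Emx1 (r = 0.99), Eomes (0.98), and Ctcf (0.98), and among those most like Neurod6 were Neurod2 (r = 0.98) and Mpped1 (r = 0.98). These genes were the top of a ranking and were given no test.

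With the dorsal telencephalon score in the model, which compares embryos at the same score, the SE of the log2 difference between Tbr1 K228E/K228E and WT fell from 0.23 to 0.083 for Neurog2, from 0.25 to 0.12 for Eomes, and from 0.26 to 0.14 for Neurod6, and stayed at 0.39 and 0.40 for Neurog1. Neurod6 then differed by -0.30 between Tbr1 K228E/K228E and WT (95% interval -0.59 to -0.0096, adjusted p = 1.00) and by -0.41 between Tbr1 K228E/K228E and Tbr1+/K228E (95% interval -0.69 to -0.13, adjusted p = 0.673). Neither passed the correction over all genes. Eomes differed by -0.13 (adjusted p = 1.00) and -0.25 (adjusted p = 0.905) in these comparisons. The interval of the difference of Neurod4 between Tbr1+/K228E and WT lay above 0 with sex (0.37, 95% interval 0.014 to 0.72, adjusted p = 0.999) or the cell cycle score (0.26, 95% interval 0.027 to 0.49, adjusted p = 1.00) in the model. None of the 3 genes of the dorsal telencephalon score passed the test between genotypes. Of these, Emx1 was the gene most like Eomes and Neurog2 in the same embryos, so the fall of their SE was built into the model. The intervals from the model with this score are a description.

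Ratios between the 9 genes within an embryo, which were examined after the data had been seen, gave 0 of 36 pairs past an adjusted p of 0.05 in each comparison of genotypes (two-sided exact permutation tests, adjusted over all pairs and comparisons, smallest adjusted p = 0.429), and 8 of 108 tests had an unadjusted p under 0.05. Embryos of a pair of genotypes did not overlap in 2 of the 108 tests. For a single ratio, a share of 0.00794 of all splits of 5 against 5 embryos gives no overlap. In the ratio of Neurod6 to Neurod2, every Tbr1 K228E/K228E embryo (1.14 to 1.33) lay below every Tbr1+/K228E embryo (1.35 to 1.46), with an unadjusted exact permutation p of 0.00794. WT embryos, from 1.13 to 1.47, overlapped with both. The log2 ratio of Insm1 to Neurod4 was 4.09 ± 0.12 (SD, n = 5) for Tbr1+/K228E and 4.32 ± 0.11 (SD, n = 5) for WT embryos, without overlap and with the same exact permutation p of 0.00794.

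The stretch before the transcription start is shown for the block of genes that moved together, because it can be read for motifs that bHLH and T-box factors bind. RefSeq promoters (GRCm38.p6) were matched for 8 of the 9 genes, and the 250 bases before the start are printed for 4 of them, 5′ to 3′ on the strand of the gene, with CANNTG (the E-box, the same motif on both strands) and TATATA (likewise, the core of a TATA box) in capitals.
Eomes, chr9:118477939-118478188, plus strand: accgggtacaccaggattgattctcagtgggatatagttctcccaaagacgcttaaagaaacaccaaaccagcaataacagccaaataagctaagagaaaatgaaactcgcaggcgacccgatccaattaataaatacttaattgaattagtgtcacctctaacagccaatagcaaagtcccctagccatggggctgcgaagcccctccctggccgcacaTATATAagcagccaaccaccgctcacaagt
Neurog2, chr3:127632886-127633135, plus strand: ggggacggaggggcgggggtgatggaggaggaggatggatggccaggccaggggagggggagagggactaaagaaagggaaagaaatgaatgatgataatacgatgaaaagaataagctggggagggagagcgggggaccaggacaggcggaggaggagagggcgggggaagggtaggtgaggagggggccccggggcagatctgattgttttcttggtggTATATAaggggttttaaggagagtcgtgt
Neurod2, chr11:98329646-98329895, minus strand: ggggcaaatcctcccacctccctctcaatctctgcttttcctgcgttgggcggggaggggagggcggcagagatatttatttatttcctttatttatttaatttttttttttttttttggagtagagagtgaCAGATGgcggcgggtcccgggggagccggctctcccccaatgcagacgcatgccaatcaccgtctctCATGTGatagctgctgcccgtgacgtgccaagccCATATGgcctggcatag
Neurod6, chr6:55681264-55681513, minus strand: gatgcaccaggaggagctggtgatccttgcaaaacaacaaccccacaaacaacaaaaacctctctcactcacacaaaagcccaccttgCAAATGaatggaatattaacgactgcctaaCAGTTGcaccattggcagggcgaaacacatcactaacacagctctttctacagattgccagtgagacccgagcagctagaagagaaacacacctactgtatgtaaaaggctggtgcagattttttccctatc

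CANNTG was found in the 250 bases of 3 of the 8 genes, Neurod1, Neurod2, and Neurod6, against 66.0% of 27025 promoters of the same length, taking a single promoter per gene. Those of Neurod2 begin 118, 51, and 17 bases before the start (CAGATG is the first of them), and those of Neurod6 begin 162 and 132 bases before it. CAGATG (or CATCTG on the other strand), a form of CANNTG, was found in 14.5% of all promoters. TATATA began 30 bases before the start of Eomes and 29 bases before that of Neurog2, and was also found in Neurod1, 31 bases before its start, against 5.56% of all promoters. GGTGTGA (or TCACACC), a T-box half-site, was found in none of the 8 and in 3.31% of all promoters. These matches describe letters in the window only.

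Other genes of the same pathway were compared by lists. Of 8 further genes of intermediate progenitors and their neuronal output (Hes6, Gadd45g, Dll1, Dll3, Mfng, Sstr2, Nhlh1, and Rnd2), 0 passed the test in any comparison of genotypes. Their median log2 difference from WT was 0.05 in Tbr1+/K228E and -0.02 in Tbr1 K228E/K228E embryos, and Sstr2, a somatostatin receptor, had the lowest value in the latter (-0.23, SE 0.14). Of 9 other proneural and related bHLH genes, 7 passed the filter on low values and 0 passed the test. Between Tbr1 K228E/K228E and WT, the highest of their log2 differences was that of Bhlhe22, a bHLH factor of cortical neurons (0.45, SE 0.19, adjusted p = 1.00), and the lowest that of Atoh1, the proneural factor of the rhombic lip in the hindbrain (-2.01, SE 1.27, adjusted p = 1.00), which ran from 1.87 to 85.7 normalized read counts in WT embryos alone.

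The E protein partners Tcf3, Tcf4, and Tcf12 had log2 differences between -0.12 and 0.08 in all comparisons, and 0 of 3 passed. Of 8 inhibitors of bHLH factors, the Id genes and the Hes and Hey genes downstream of Notch, 0 passed, with median log2 differences from WT of 0.01 in Tbr1+/K228E and -0.11 in Tbr1 K228E/K228E embryos. Of 10 genes of the Notch pathway, which holds neighboring cells in the progenitor state, 0 passed, and their log2 differences between Tbr1 K228E/K228E and WT ran from -0.10 (Dll3) to 0.08 (Jag2).

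Over all lists that were compared, the genes past the threshold were Tbr1 and Reln, the secreted guidance protein of Cajal-Retzius cells. Reln fell by 0.56 on the log2 scale in Tbr1 K228E/K228E relative to WT (SE 0.06, adjusted p = 0.000603) and by 0.47 relative to Tbr1+/K228E embryos (SE 0.06, adjusted p = 0.00707).

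Sex was compared as well, since each genotype held 3 females and 2 males. Of all genes, 0.0788% passed an adjusted p of 0.05 between the sexes and 0% in the test of whether the difference between Tbr1 K228E/K228E and WT depended on sex, and 0 of the 9 genes passed in either. Without adjustment, a limma p under 0.05 was found for 1 of 9 genes (11% of all genes) and for 2 of 9 genes (6.46% of all genes). For Btg2 the log2 difference of females from males was 0.24 (SE 0.09, adjusted p = 0.41). In WT, Btg2 was at 843, 945, and 947 in females and at 569 and 640.1 in males, without overlap. The share of all genes without such overlap was not computed. The lower of these males, replicate 4, was also the lowest WT embryo for 7 of 9 genes. The sexes overlapped in Tbr1+/K228E embryos (females 811, 915, and 900, males 788 and 874). They also overlapped in Tbr1 K228E/K228E embryos (females 872, 771, and 749, males 683 and 852). The difference of differences was -0.53 for Btg2 (SE 0.16, adjusted p = 0.752) and -0.65 for Neurod4 (SE 0.27, adjusted p = 0.752).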

How the data were processed

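Embryos were grouped by the genotype, sex, and replicate number in the labels, and all 15 columns of the table were matched to a sample (0 columns were left out). Nothing in the sources used here says whether embryos came from separate litters. The authors estimated transcript abundance with Salmon (0.11.2, GC bias correction) on GRCm38, summed it to genes (tximport), and applied the size factors of DESeq2 (1.22.2) in R 3.5.3, so the deposited values are a normalized signal per gene and not whole counts. Low values were whole multiples of a step for 39.9 to 67.4% of genes (tolerance 0.05), so that a count model could not be used. Within genotypes, log values of embryos had an r of 0.971 to 0.988, and 0 pairs of columns were identical.

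Differences were tested with limma 3.58.1 (R 4.3.3; eBayes with its trend option) on log2(value + 1) of 16507 genes with a mean of at least 5, in a single fit of 15 embryos with Benjamini–Hochberg correction and a threshold of 0.05; this scale understates changes of low genes. Of the table, 19452 identifiers were matched to GENCODE M21, which gave coordinates and exon lengths. The fit was tested on simulated data. The members and lists were chosen with earlier results of these data known. Named were the 9 genes, Tbr1 and Pax6, list genes past the threshold or at the extremes of their list, and the genes most correlated with Eomes (5), Neurog2 (3), and Neurod6 (2). Genes that are not reported here were also left out of the lists and of the dorsal telencephalon score after the data had been examined. Alternatives were other pseudocounts (0.1 and 10), filters (none, or a mean of at least 50), scalings (upper quartile, quantile), covariates (sex; Hox and meninges; dorsal telencephalon; cell cycle), robust eBayes, a block for the replicate number, the compared genotypes alone, an empirical null, and leaving out each embryo.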

Additional observations from a re-analysis of the deposited data

How the results depend on the processing

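None of the 9 genes passed an adjusted limma p of 0.05 between genotypes under any of the 29 alternatives that were run, where the smallest adjusted p over 780 recomputed values was 0.673 (Neurod6, Tbr1 K228E/K228E against Tbr1+/K228E, with the dorsal telencephalon score as a covariate); Neurog1 was not tested with the filter at a mean of at least 50, which it does not reach. Directions of differences near 0 were less stable, and the causes were not tested. Between Tbr1 K228E/K228E and WT, the log2 differences with the Hox and meninges scores as covariates were -0.13 for Eomes, -0.11 for Neurog2, -0.068 for Insm1, and -0.14 for Neurod2. With the dorsal telencephalon score they were -0.13 for Eomes, -0.094 for Neurog2, -0.065 for Insm1, -0.036 for Btg2, and -0.12 for Neurod2. Neurod1 was at 0.0030 with upper quartile rescaling and at 0.021 with the cell cycle score, and Neurod2 at -0.013 with quantile normalization. Between Tbr1 K228E/K228E and Tbr1+/K228E, the cell cycle score gave 0.028 for Eomes, 0.079 for Neurog2, 0.063 for Insm1, and 0.029 for Neurod2, and the Hox and meninges scores gave -0.072 for Neurod1.

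Leaving out each embryo in turn, the log2 differences between Tbr1+/K228E and WT ran from -0.014 to 0.42 for Eomes, from -0.32 to 0.14 for Neurog1, from -0.047 to 0.37 for Neurog2, from -0.087 to 0.066 for Neurod1, from -0.018 to 0.31 for Neurod2, from -0.014 to 0.40 for Neurod6, and from -0.011 to 0.12 for Pax6. Between Tbr1 K228E/K228E and WT they ran from -0.23 to 0.20 for Eomes, from -0.17 to 0.25 for Neurog2, from -0.11 to 0.15 for Insm1, from -0.092 to 0.091 for Btg2, from -0.098 to 0.078 for Neurod1, from -0.19 to 0.14 for Neurod2, and from -0.39 to 0.024 for Neurod6. Between Tbr1 K228E/K228E and Tbr1+/K228E they ran from -0.38 to 0.069 for Neurog1 and from -0.085 to 0.079 for Neurod1. WT replicate 4 turned the most of these signs. The log2 ratio of Eomes to Pax6 ran from -0.044 to 0.30, from -0.11 to 0.23, and from -0.13 to 0.0091 in the same order of comparisons, and that of Eomes to Neurod6 between Tbr1+/K228E and WT from -0.058 to 0.066. The log2 ratio of Tbr1 to Eomes kept its direction and stayed past the threshold, from 0.54 to 0.69, from 1.62 to 1.75, and from 0.98 to 1.13.

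Same-numbered embryos of different genotypes share their sex, and no source used here says that they share a litter or a day. Their deviations correlated with r of 0.06, 0.27, and 0.01 in the 3 comparisons, and 2, 4, and 2 of 5 pairs were over 0.1. With the replicate number as a block, 0 of the 9 genes passed in each comparison, and the count over all genes went from 13 to 2 between Tbr1 K228E/K228E and Tbr1+/K228E and from 16 to 7 in the test of any difference. In paired exact sign-flip permutation tests, the log2 ratios of Tbr1 to Eomes were again 0.61, 1.67, and 1.06, each with an adjusted p of 0.125; 5 pairs cannot give an unadjusted p below 0.0625.

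Of all genes, 12 passed between Tbr1 K228E/K228E and WT in a fit of these genotypes alone, 42 with the empirical null, and 33 with the dorsal telencephalon score, against 21. The score gave 28 instead of 13 between Tbr1 K228E/K228E and Tbr1+/K228E and 29 instead of 16 in the test of any difference. Of the 36 pairs of genes, 16 passed without the 2 embryos farthest from the median, and 11 of 36 with the Hox, meninges, and cell cycle scores regressed out, against 22. With 5 embryos a genotype and SEs of 0.12 to 0.39, the 95% intervals without covariates spanned 0 for all 9 genes in all 3 comparisons.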

Other observations

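Genes on either side of the intermediate progenitor step were compared by lists as well. Of 10 radial glial genes, among them Vim, Fabp7, and Ptprz1, 0 passed the adjusted limma test between genotypes, and their log2 differences between Tbr1 K228E/K228E and WT ran from -0.14 (Hes1) to 0.14 (Ptprz1). Of 10 genes of glutamatergic neurons, 0 passed, although 2 had an unadjusted limma p under 0.05 between Tbr1 K228E/K228E and WT, against 3.23% of all genes. These were Fezf2, a factor of deep-layer neurons that project below the cortex, at 0.66 (SE 0.24), and Rorb, a factor of layer 4, at -0.33 (SE 0.10, adjusted p = 0.727). The study, which used DESeq2 with p-values corrected by fdrtool, listed Rorb among the genes lowered in Tbr1 K228E/K228E embryos. Its test called more genes between these genotypes than limma did here, so a gene that did not pass here may have passed there. Of 10 genes of GABAergic neurons and their ventral progenitors, 0 passed, with a median log2 difference of 0.27 between Tbr1+/K228E and WT and of 0.11 between Tbr1 K228E/K228E and WT.

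Of 20 cell cycle genes, 0 passed in any comparison of genotypes. Their median log2 difference was 0.11 between Tbr1+/K228E and WT, with 20 of 20 positive (median of all genes, -0.0021). It was -0.19 between Tbr1 K228E/K228E and Tbr1+/K228E, with 0 of 20 positive (all genes, 0.00042). These comparisons share embryos and the 20 genes are not independent of each other, so the counts of signs are a description. The share of positive differences over all genes was not computed. The embryos of each genotype overlapped in the mean log2 value of this list, which ran from 9.94 to 10.7 in WT, from 10.3 to 10.7 in Tbr1+/K228E, and from 9.92 to 10.6 in Tbr1 K228E/K228E embryos.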
